A study of Homo sapiens with 4 samples.

Results

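The genes described here are 33 genes of cholesterol and fatty acid synthesis and its control, out of 17755 genes in the expression table of 2 melanoma cell lines. They were listed by name for their known place in these pathways. By role they are 4 genes of SREBP control, 7 of the mevalonate steps, 11 of the squalene and sterol steps, 8 of fatty acid synthesis and desaturation, and 3 of sterol transfer, uptake and export. The 8 include LPIN1, a phosphatidate phosphatase that makes diacylglycerol and is not itself an enzyme of fatty acid synthesis. SK-MEL-28 and A375 are established human melanoma cell lines, and each was transfected either with a control siRNA (siNC) or with siRNA against the long non-coding RNA LINC00622 (siLINC00622). Both treatments were given for 6 h in DMEM without serum, after which the cells were kept for 24 h in DMEM with serum. RNA-Seq was performed on 4 libraries, 1 for each line and treatment. The labels call the source melanoma tissues, while the cell line is named for each sample, and which siRNA sequence was used is not given in the labels.

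Cells make cholesterol from acetyl-CoA through the mevalonate steps, then through squalene and a series of sterol intermediates. Fatty acids are built from the same acetyl-CoA, elongated and desaturated. The membrane-bound transcription factors SREBP-1 and SREBP-2 are held in the endoplasmic reticulum by INSIG proteins when sterols are plentiful, and are escorted by SCAP to the Golgi for cleavage when sterols are scarce, after which they switch on most genes of both pathways. Loss of sterols in serum-free medium and their return with serum is therefore a usual way to move this programme, and all 4 libraries went through the same change of medium.

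The library totals were between 31269923 and 36384819 counts. LINC00622 had 309 counts under siNC and 135 under siLINC00622 in SK-MEL-28, which gave a log2 ratio of siLINC00622 over siNC of -1.21 (-1.53 to -0.93). In A375 it had 135 and 86 counts in the same order, and the ratio was -0.84 (-1.27 to -0.46). The intervals in parentheses here and below are 95% Clopper-Pearson intervals of the ratio, and cover counting error only. All 10 markers of pigment cells and melanoma were in the table, with a summed level of 2117 and 2251 FPKM in SK-MEL-28 and of 206 and 249 FPKM in A375. The markers did not share these sums evenly. In A375 most of the sum came from SOX10 and CSPG4, and CSPG4 was higher there than in SK-MEL-28. MLANA, TYR, DCT, TYRP1 and MIA were below 1 FPKM in both A375 libraries. TYRP1 and MIA were below 1 FPKM in SK-MEL-28 as well. Of 14 markers of keratinocytes, endothelium, leukocytes, adipocytes and hepatocytes, 1 was in the table (KRT14, 0.080 and 0.026 FPKM in SK-MEL-28, 7.01 and 6.14 FPKM in A375). Mitochondrial transcripts took 5.62% and 5.72% of the counts in SK-MEL-28 and at most 3.18% in A375.

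SREBPs bind the sterol regulatory element together with NF-Y, which binds the CCAAT box, or with SP1, which binds the GC box. The upstream sequences of some of the genes, chosen as said below, are therefore shown first. RefSeq promoters (GRCh38.p14, from 250 bases before to 50 bases after the start site) were matched by symbol for 29 of the 33 genes. ACAT2, FASN, FDFT1 and SQLE had no entry. Each stretch below ends at the base before the outermost start of the gene in the GENCODE 29 annotation. It is written 5′ to 3′ on the strand of the gene. Capitals mark every CCAAT box and, in SREBF2, the match to the sterol regulatory element. INSIG1 (chr7:155297628-155297775, plus strand), MVD (chr16:88663162-88663341, minus strand) and MSMO1 (chr4:165327423-165327622, plus strand) are given because they had 3 of the 5 highest ratios in SK-MEL-28, and HMGCS1 (chr5:43313513-43313662, minus strand) because its ratio had opposite signs in the lines. STARD4 (chr5:111512591-111512785, minus strand) is given as the gene with the lowest ratio in SK-MEL-28. SREBF2 (chr22:41832879-41833078, plus strand) is given as the gene with a match to the letters searched for as the sterol regulatory element.
INSIG1: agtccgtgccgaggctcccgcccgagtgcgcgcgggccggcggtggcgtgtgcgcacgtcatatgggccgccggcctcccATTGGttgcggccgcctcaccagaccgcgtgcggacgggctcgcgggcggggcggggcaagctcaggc
MVD: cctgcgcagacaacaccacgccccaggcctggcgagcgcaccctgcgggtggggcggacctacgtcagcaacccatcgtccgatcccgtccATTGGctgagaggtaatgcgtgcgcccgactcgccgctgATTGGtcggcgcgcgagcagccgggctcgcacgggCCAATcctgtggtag
MSMO1: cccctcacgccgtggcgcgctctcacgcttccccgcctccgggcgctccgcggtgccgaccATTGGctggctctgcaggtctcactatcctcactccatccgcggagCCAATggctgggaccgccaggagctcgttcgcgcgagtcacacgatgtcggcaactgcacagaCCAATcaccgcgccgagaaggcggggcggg
HMGCS1: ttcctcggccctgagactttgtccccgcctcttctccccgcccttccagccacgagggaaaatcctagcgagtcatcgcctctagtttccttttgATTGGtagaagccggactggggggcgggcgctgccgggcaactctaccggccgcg
STARD4: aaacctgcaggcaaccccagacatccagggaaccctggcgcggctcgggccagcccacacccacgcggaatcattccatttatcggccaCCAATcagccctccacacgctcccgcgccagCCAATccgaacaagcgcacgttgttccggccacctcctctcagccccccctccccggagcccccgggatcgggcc
SREBF2: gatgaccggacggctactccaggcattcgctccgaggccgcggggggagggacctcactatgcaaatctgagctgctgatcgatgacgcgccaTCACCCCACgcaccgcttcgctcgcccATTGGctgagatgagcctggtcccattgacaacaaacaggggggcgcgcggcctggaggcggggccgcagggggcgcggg

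In the whole windows of 300 bases, both strands were searched for 5 motifs. The CCAAT box (CCAAT, read on either strand) was found in 18 of the 29 promoters (62.1%), against 35.7% of all 27305 promoters in the RefSeq table. At least 2 CCAAT boxes were found in 13 of them (44.8%), against 11.3% of all promoters. The GC box (GGGCGG) was found in 27 (93.1%), against 44.6% of all promoters. The sterol regulatory element (TCACNCCAC) was found in 1 (3.45%), that of SREBF2, against 1.15% of all. The E-box CACGTG was found in 5 (17.2%), those of ABCA1, INSIG1, LSS, SC5D and SCAP, against 7.43% of all. The DR4 element of the oxysterol receptors LXR (AGGTCA repeated after 4 bases) was found in 0 of the 29 and in 0.0183% of all promoters. These are counts of letters in a fixed window and do not show binding. A sterol regulatory element with other letters, or outside the window, would be missed, so a gene without a match may still have one. CCAAT boxes were present both upstream of genes with high ratios in SK-MEL-28, such as MVD and MSMO1, and upstream of STARD4, whose ratio was the lowest. Of the next lowest, ELOVL6 (log2 ratio -0.48) had no CCAAT box in its window, whereas HSD17B7 (-0.23) had them. Every stretch shown above holds a CCAAT box, but ABCA1, which is not shown, had none in its window.

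All 33 genes had counts in all 4 libraries, and 31 of them had at least 50 counts in each. Levels are compared between genes in FPKM, which the authors scaled for gene length and depth. SCD, the desaturase that makes oleic from stearic acid, ranked first by level in SK-MEL-28, with 143 and 196 FPKM in the siNC and siLINC00622 libraries. FASN, the fatty acid synthase, followed with 89.0 and 84.9 FPKM, and ACLY, which cleaves citrate into cytosolic acetyl-CoA, with 75.5 and 81.8 FPKM. In A375 the same 3 genes led in another order, with FASN at 98.1 and 93.7 FPKM, SCD at 86.6 and 88.9 FPKM and ACLY at 75.8 and 78.9 FPKM. The FPKM of the 33 genes summed to 606 and 678 in SK-MEL-28 and to 576 and 572 in A375, and the 4 most abundant genes made up between 50.2% and 59.5% of that sum. Fatty acid synthesis genes alone summed to 345 and 401 FPKM in SK-MEL-28 and to 313 in both A375 libraries. The lowest levels were those of ABCA1, the cholesterol exporter, and TM7SF2, a sterol reductase, in SK-MEL-28.

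**Figure D1:**
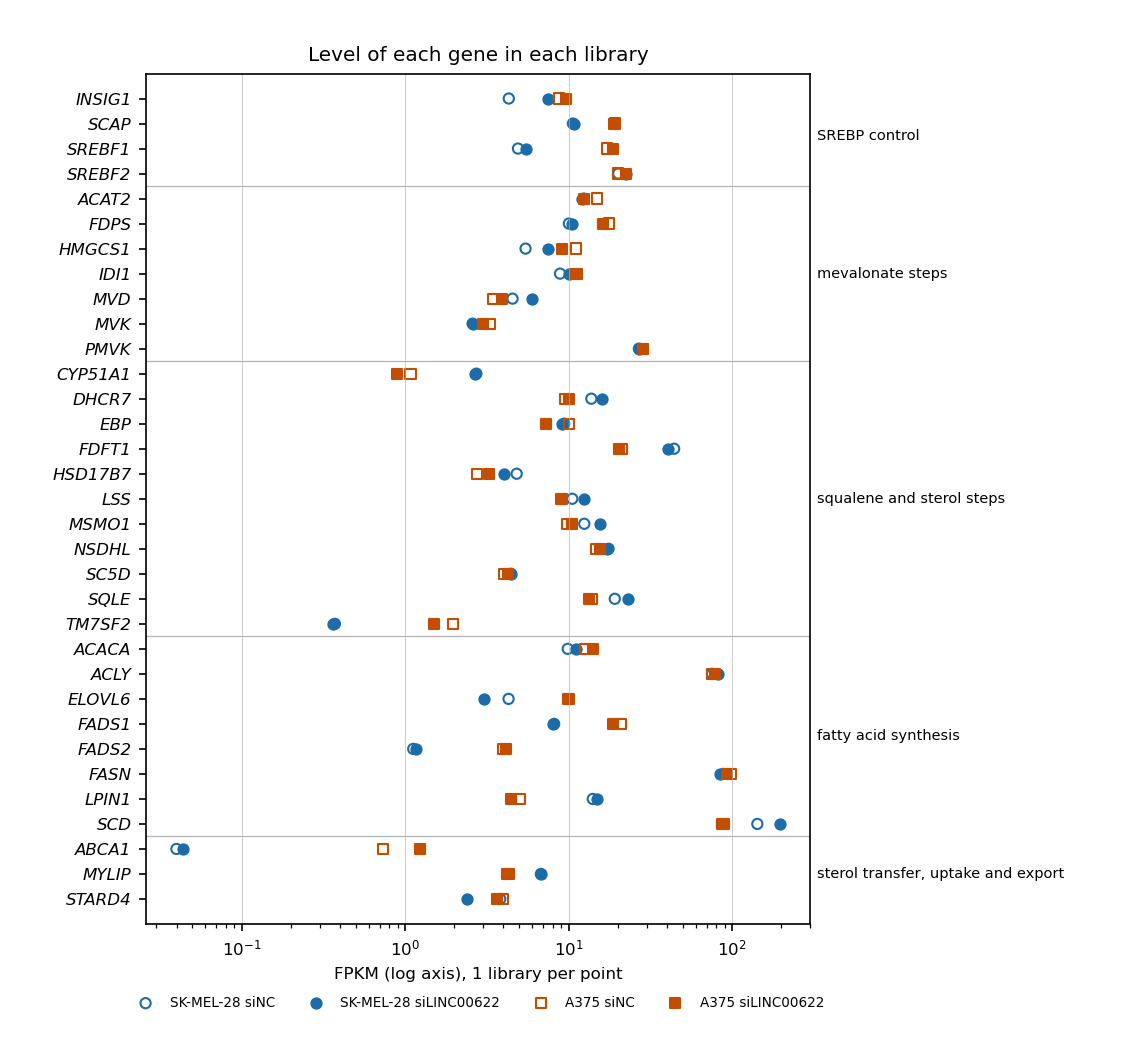
Level of each of the 33 genes in FPKM on a log axis, by role, with 1 point per library (circles SK-MEL-28, squares A375, open siNC, filled siLINC00622). SCD, FASN and ACLY lie at the high end in all 4 libraries, and ABCA1 is below 0.1 FPKM in both SK-MEL-28 libraries.

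The first comparison asked how these genes differed between the 2 lines whatever the siRNA. It had 2 libraries of each line, 1 per treatment, and was tested in edgeR's quasi-likelihood fit with treatment as a block and Benjamini-Hochberg adjustment over 16258 genes. Of the 33 genes, 13 (39.4%) were higher in SK-MEL-28 and 10 (30.3%) lower at an adjusted p below 0.05. Over all genes tested, 33.8% were higher and 35.1% lower, so the share called was near the background. By role, 9 of the 11 genes of the squalene and sterol steps were higher in SK-MEL-28 (81.8%), whereas 3 of the 4 genes of SREBP control were lower (75.0%). Roles of 11 and 4 genes are too few to set against the shares of all genes. The calls for NSDHL and SC5D of the first role, and for INSIG1 of the second, were lost under alternatives. In bulk RNA, fewer cells that express a gene and less of its RNA per cell cannot be told apart. With 1 library per line and treatment, the p-values rest on what line and treatment leave over, drawn in part from all genes. This error includes any difference between the lines in their response to the siRNA. It is not a spread between replicates, and nothing in the labels gives separate cultures of a line under 1 treatment.

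Among the sterol genes, the log2 difference of SK-MEL-28 over A375 was 1.63 (interval 1.20 to 2.06, adjusted p = 2.5e-04) for CYP51A1, which removes a methyl group from lanosterol. It had 319 and 322 counts in SK-MEL-28 and 119 and 114 counts in A375, so the lines did not overlap. FDFT1, the squalene synthase, had 44.3 and 40.8 FPKM against 21.3 and 20.5 FPKM, a log2 difference of 1.19 (interval 0.99 to 1.39, adjusted p = 3.7e-05). SQLE, the squalene epoxidase, DHCR7, which makes cholesterol from its last precursor, and HSD17B7, a sterol ketone reductase, were also higher in SK-MEL-28, by 0.80, 0.78 and 0.72. For HSD17B7 the difference was 0.98 between the siNC libraries alone and 0.47 between the siLINC00622 libraries alone. MSMO1, a sterol methyl oxidase, was higher by 0.62 and LSS, which closes the ring system of lanosterol, by 0.51. NSDHL and SC5D, both of the later sterol steps, were higher by 0.36 and 0.27, and both calls were lost with DESeq2 (adjusted p = 0.0745 and 0.142) and with limma on FPKM (adjusted p = 0.0835 and 0.455). The call for SC5D was also lost in edgeR's fit when treatment was left out of the model (adjusted p = 0.0891). The exception in the other direction was TM7SF2, with 42 and 42 counts in SK-MEL-28 and 209 and 186 counts in A375, a log2 difference of -2.06 (interval -2.58 to -1.54, adjusted p = 2.1e-04). EBP, a sterol isomerase, differed by 0.28 (interval -0.07 to 0.63, adjusted p = 0.126) and was not called, with 0.09 between the siNC libraries alone and 0.48 between the siLINC00622 libraries alone.

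Of the genes of SREBP control, SREBF1, which encodes SREBP-1 and leans towards fatty acid genes, had 4.91 and 5.52 FPKM in SK-MEL-28 and 17.1 and 18.7 FPKM in A375, a log2 difference of -1.62 (interval -1.83 to -1.40, adjusted p = 1.3e-05). SREBF2, which encodes SREBP-2 and leans towards cholesterol genes, had 20.2 and 22.6 FPKM and 20.0 and 22.6 FPKM, a log2 difference of 0.17 (interval -0.03 to 0.37, adjusted p = 0.103). SREBF2 was thus 4.11 and 4.09 times as abundant as SREBF1 in the SK-MEL-28 libraries, and 1.17 and 1.21 times in those of A375. SCAP, the escort, was lower in SK-MEL-28, with a log2 difference of -0.66 (interval -0.87 to -0.45, adjusted p = 6.1e-04). INSIG1, the retention protein, was lower at -0.52 (interval -0.92 to -0.13, adjusted p = 0.0254), a call lost with DESeq2 (adjusted p = 0.0664) and when treatment was left out of the model (adjusted p = 0.150). Its log2 difference was -0.84 between the siNC libraries alone and -0.21 between the siLINC00622 libraries alone.

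The mevalonate steps divided less. MVD, which makes isopentenyl diphosphate, was higher in SK-MEL-28 by 0.67 (interval 0.39 to 0.95, adjusted p = 0.00207). FDPS, the farnesyl diphosphate synthase, was lower at -0.56 (interval -0.81 to -0.32, adjusted p = 0.00241), and HMGCS1, which makes HMG-CoA, was lower at -0.49 (interval -0.91 to -0.08, adjusted p = 0.0405). The call for HMGCS1 was lost under 3 alternatives (adjusted p between 0.0571 and 0.0629), and its log2 difference was -0.85 between the siNC libraries alone and -0.12 between the siLINC00622 libraries alone. ACAT2, which starts the route by joining acetyl groups, MVK and PMVK, which phosphorylate mevalonate, and IDI1, which isomerises isopentenyl diphosphate, had log2 differences of 0.01, -0.11, 0.08 and -0.08 and were not called. Between the siNC libraries alone these were -0.08, -0.17, 0.09 and -0.17 in the same order. Between the siLINC00622 libraries alone they were 0.12, -0.04, 0.09 and 0.03, so ACAT2 and IDI1 changed sign.

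In fatty acid synthesis the desaturases went apart. SCD was higher in SK-MEL-28, by a log2 difference of 1.10 (interval 0.83 to 1.36, adjusted p = 1.6e-04), whereas FADS2, the desaturase that starts the polyunsaturated route, had 1.12 and 1.17 FPKM against 3.96 and 4.14 FPKM and was lower at -1.65 (interval -1.91 to -1.40, adjusted p = 2.3e-05). FADS1, its partner in the same route, was lower at -1.12 (interval -1.34 to -0.91, adjusted p = 5.7e-05). SCD was 127 and 167 times as abundant as FADS2 in FPKM in the SK-MEL-28 libraries and 21.9 and 21.5 times in those of A375. ELOVL6, which elongates palmitic acid, was lower in SK-MEL-28 at -1.29 (interval -1.64 to -0.95, adjusted p = 2.7e-04). LPIN1, a phosphatidate phosphatase that makes diacylglycerol, was higher by 1.79 (interval 1.54 to 2.04, adjusted p = 1.4e-05), the largest difference in that direction among the 33 genes. FASN (0.02), ACLY (0.19) and ACACA (-0.19), the acetyl-CoA carboxylase that makes malonyl-CoA, were not called. ACLY was called with DESeq2 size factors (adjusted p = 0.0461) and ACACA with limma on FPKM (adjusted p = 0.0124).

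The largest difference of all 33 was that of ABCA1, with 15 and 17 counts in SK-MEL-28 and 260 and 506 counts in A375, a log2 difference of -4.35 (interval -4.95 to -3.75, adjusted p = 1.5e-05). MYLIP, the ubiquitin ligase that marks lipoprotein receptors for degradation and is switched on by LXR as ABCA1 is, differed in the other direction, by 0.84 (interval 0.55 to 1.12, adjusted p = 8.1e-04). STARD4, a carrier of cholesterol between membranes, had a difference of -0.16 (interval -0.54 to 0.22, adjusted p = 0.398) and was not called. Its difference was 0.13 between the siNC libraries alone and -0.45 between the siLINC00622 libraries alone.

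**Figure D2:**
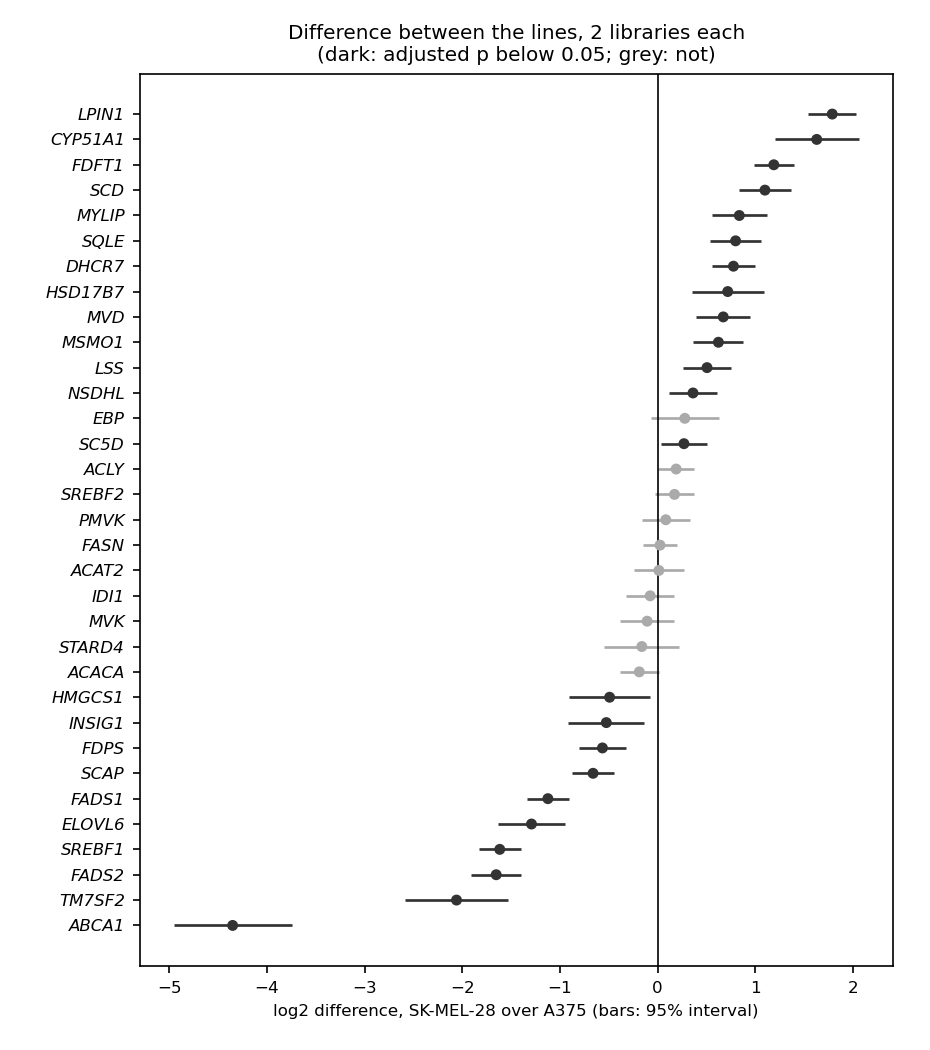
Log2 difference of SK-MEL-28 over A375 for each of the 33 genes in edgeR's quasi-likelihood fit, with its 95% interval, ordered by size; dark genes had an adjusted p below 0.05 and grey genes did not. ABCA1 stands at the low end at -4.35, and sterol genes make up most of the dark genes to the right of 0.

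The second comparison asked how the level of these genes differed under siLINC00622 within each line. As each condition had 1 library, the conditions could not be tested within a line, and a gene is described by its log2 ratio, its counting interval and whether it passed a fold change of 1.5, the size of change that the study used. In SK-MEL-28, INSIG1 was higher and STARD4 lower past that fold, and in A375 only ABCA1, which was higher. With deposited FPKM and a pseudocount of 1, STARD4 came to -0.51 and ABCA1 to 0.36, both short of that fold, and INSIG1 remained past it. Past 1.5-fold, all genes with at least 10 counts gave 4.56% higher and 6.49% lower in SK-MEL-28 (15442 genes) and 4.52% higher and 4.34% lower in A375 (16021 genes). The 33 genes had a median log2 ratio of 0.07 for SK-MEL-28 and of -0.0033 for A375, against -0.0040 and 0.0043 over all genes. The median for SK-MEL-28 was 0.019 with deposited FPKM and 0.017 with deposited TPM.

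The counting interval in SK-MEL-28 lay above 0 for 14 of the 33 genes (42.4%) and below 0 for 5 (15.2%), against 22.9% and 24.0% of all genes. In A375 it lay above 0 for 10 (30.3%) and below 0 for 8 (24.2%), against 23.8% and 22.0%. At this depth even small differences between 2 libraries leave the counting interval, and the spread between cultures is not part of it. Of the 33 ratios, 22 were within 0.2 of 0 on the log2 scale in SK-MEL-28 and 26 in A375.

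In SREBP control, 3 of the 4 genes had an interval above 0 in both lines, and 0 had one below. Of all genes 11.0% were above 0 in both lines, and 4 genes are too few to set against that share. INSIG1, itself a target of SREBP, had 521 counts under siNC and 934 under siLINC00622 in SK-MEL-28, which gave a log2 ratio of 0.81 (0.65 to 0.97). In A375 it had 1002 and 1290 counts and a ratio of 0.15 (0.03 to 0.28), so both lines were higher and their intervals did not overlap. SREBF2 had 5042 and 5828 counts in SK-MEL-28 and 4719 and 6205 counts in A375, with log2 ratios of 0.18 (0.12 to 0.23) and 0.19 (0.13 to 0.24). SREBF1 had log2 ratios of 0.18 (0.08 to 0.29) in SK-MEL-28 and 0.14 (0.08 to 0.19) in A375. SCAP had ratios of 0.03 and -0.01, and both of its intervals included 0. In FPKM, the level of INSIG1 over that of SREBF2 was 0.214 under siNC and 0.332 under siLINC00622 in SK-MEL-28, against 0.440 and 0.430 in A375.

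Among the mevalonate steps, HMGCS1 was the 1 gene of 7 with intervals on opposite sides of 0 in the lines. It had 1198 counts under siNC and 1700 under siLINC00622 in SK-MEL-28, which gave a log2 ratio of 0.47 (0.37 to 0.58). In A375 it had 2313 and 2212 counts and a ratio of -0.27 (-0.36 to -0.19), so that the siRNA went with a higher level in one line and a lower level in the other. Over the 7 genes the interval lay above 0 for 3 and below 0 for 0 in SK-MEL-28, and above 0 for 1 and below 0 for 3 in A375. The shares of all genes above and below 0 were 22.9% and 24.0% for SK-MEL-28, with 23.8% and 22.0% for A375, and 7 genes are too few to set against them. The intervals of the lines were apart for HMGCS1 and IDI1, 2 of the 7, against 26.5% of all genes. The gene above 0 in both was MVD, with 710 and 969 counts and a ratio of 0.42 (0.28 to 0.56) in SK-MEL-28, and 509 and 676 counts and a ratio of 0.20 (0.03 to 0.37) in A375. IDI1 had ratios of 0.19 (0.08 to 0.30) in SK-MEL-28 and -0.03 (-0.13 to 0.07) in A375. ACAT2 and FDPS were below 0 in A375, at -0.25 (-0.36 to -0.13) and -0.11 (-0.20 to -0.03), and their intervals in SK-MEL-28 included 0 (-0.02 and 0.07). Both kinases had intervals that included 0 in both lines, with ratios between -0.13 and 0.02.

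Of the 11 squalene and sterol genes, the interval lay above 0 for 4 and below 0 for 2 in SK-MEL-28, and above 0 for 2 and below 0 for 2 in A375. Over all genes the interval lay above 0 for 22.9% and below 0 for 24.0% in SK-MEL-28, and for 23.8% and 22.0% in A375, and these 11 are too few to set against those shares. MSMO1 had 1179 and 1518 counts in SK-MEL-28 and a ratio of 0.33 (0.22 to 0.44), and 878 and 1091 counts in A375 and a ratio of 0.10 (-0.03 to 0.23). SQLE had ratios of 0.28 (0.20 to 0.35) and -0.04 (-0.13 to 0.05), and LSS of 0.25 (0.17 to 0.32) and -0.01 (-0.10 to 0.07), in SK-MEL-28 and A375. For both enzymes the interval was above 0 in SK-MEL-28 and included 0 in A375, and the intervals of the 2 lines did not overlap. DHCR7 was above 0 in both lines, at 0.24 (0.17 to 0.30) and 0.09 (0.01 to 0.18). HSD17B7 had opposite signs, with 763 and 663 counts and a ratio of -0.23 (-0.39 to -0.08) in SK-MEL-28 and 414 and 570 counts and a ratio of 0.25 (0.07 to 0.44) in A375. FDFT1 was at -0.11 (-0.15 to -0.06) in SK-MEL-28 and -0.05 (-0.11 to 0.02) in A375. EBP had a ratio below 0 in A375, with 555 and 469 counts and a value of -0.45 (-0.63 to -0.27), and had 551 and 550 counts and a ratio of -0.03 (-0.21 to 0.14) in SK-MEL-28. TM7SF2 was at -0.37 (-0.67 to -0.09) in A375, and its 42 and 42 counts in SK-MEL-28 gave an interval that included 0. CYP51A1, NSDHL and SC5D had intervals that included 0 in both lines.

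In fatty acid synthesis SCD had 24816 counts under siNC and 35152 under siLINC00622 in SK-MEL-28, which gave a log2 ratio of 0.47 (0.45 to 0.49), and 14196 and 16965 counts in A375 and a ratio of 0.05 (0.02 to 0.08). In SK-MEL-28 the level of SCD went from 143 to 196 FPKM while the summed level of the 8 fatty acid genes went from 345 to 401 FPKM. ACACA was above 0 in both lines at nearly the same ratio, 0.18 (0.12 to 0.24) and 0.17 (0.12 to 0.23), and ACLY at 0.13 (0.10 to 0.16) and 0.07 (0.03 to 0.10). FASN was the gene below 0 in both lines, at -0.05 (-0.08 to -0.03) and -0.06 (-0.08 to -0.03). ELOVL6 had 1035 and 757 counts in SK-MEL-28 and a ratio of -0.48 (-0.62 to -0.35), and 2249 and 2652 counts in A375 and a ratio of 0.03 (-0.05 to 0.11). SCD and ELOVL6 thus went in opposite directions in SK-MEL-28, and neither passed 1.5-fold. LPIN1 had opposite signs in the lines, at 0.10 (0.05 to 0.16) and -0.18 (-0.27 to -0.08). FADS1 was at -0.00086 (-0.08 to 0.08) and -0.15 (-0.20 to -0.10), and FADS2 had intervals that included 0 in both lines.

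STARD4 had 719 counts under siNC and 462 under siLINC00622 in SK-MEL-28, which gave a log2 ratio of -0.67 (-0.84 to -0.50). In A375 it had 704 and 752 counts and a ratio of -0.11 (-0.26 to 0.04). STARD4 is itself a known target of SREBP-2, and in SK-MEL-28 it went against INSIG1, HMGCS1 and MVD. ABCA1 had 260 counts under siNC and 506 under siLINC00622 in A375, which gave a log2 ratio of 0.75 (0.53 to 0.97), and 15 and 17 counts in SK-MEL-28, where the interval of its ratio, 0.13 (-0.94 to 1.25), was too wide to show a change of that size or its absence. MYLIP, which is also switched on by LXR, had 404 and 482 counts in A375 and a ratio of 0.04 (-0.15 to 0.24), and in SK-MEL-28 a ratio of 0.02 (-0.14 to 0.17).

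**Figure D3:**
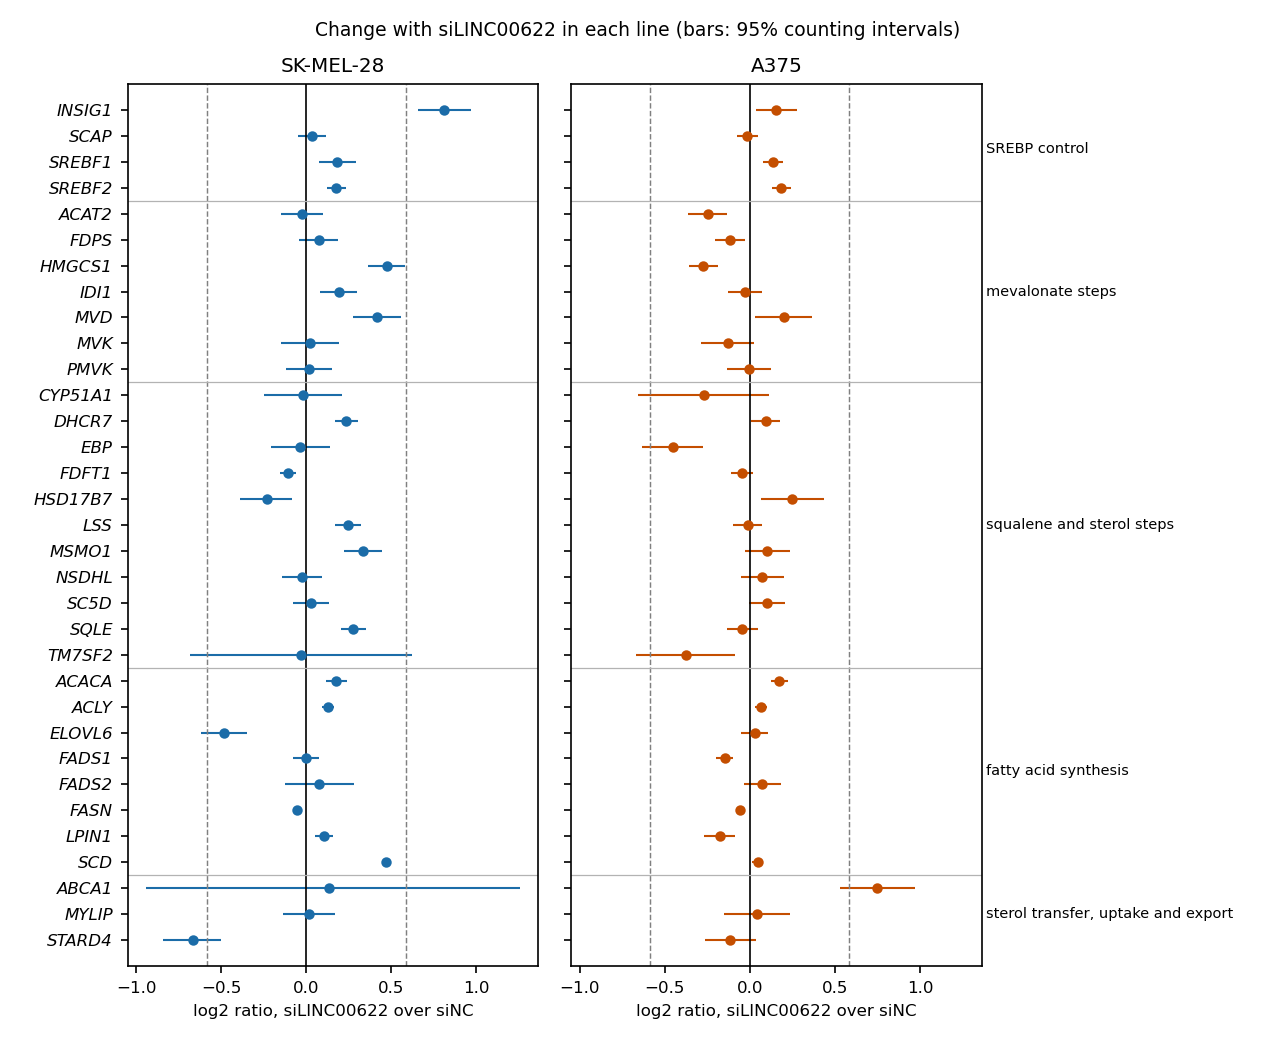
Log2 ratio of siLINC00622 over siNC for each gene in SK-MEL-28 (left) and A375 (right), by role, with 95% counting intervals; dashed lines mark 1.5-fold in each direction. INSIG1 and STARD4 lie past the dashed lines in SK-MEL-28, and ABCA1 in A375, with 1 library per condition.

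The third comparison set the ratios of the 2 lines side by side. The ratio was higher in SK-MEL-28 than in A375 for 24 of the 33 genes (72.7%, against 47.8% of the 14721 genes with at least 10 counts in 1 library of each line) and lower for 9. Among the 24, FASN, ACACA, FADS2 and PMVK were higher by only 0.0025, 0.0032, 0.0039 and 0.018. With TMM over all 4 libraries, the ratio of each of these was higher in A375 instead. The counting intervals of the lines were apart for 12 genes: for 9 genes (27.3%) SK-MEL-28 lay wholly above A375, and for 3 (9.09%) wholly below. Of the 14721 genes, the shares were 11.7% and 14.7%. These shares, and those of all genes below, were not matched for counts. The 9 were INSIG1, HMGCS1, IDI1, EBP, LSS, SQLE, FADS1, LPIN1 and SCD, and the 3 were HSD17B7, ELOVL6 and STARD4. Intervals lay above 0 in both lines for 8 genes (24.2%, against 11.0% of all genes), which were INSIG1, SREBF1, SREBF2, MVD, DHCR7, ACACA, ACLY and SCD. They lay below 0 in both for 1, FASN (3.03%, against 11.9% of all genes), and on opposite sides of 0 for 3, HMGCS1, HSD17B7 and LPIN1 (9.09%, against 6.40% of all genes). Across the 33 genes the ratios of the lines had a Pearson r of 0.20 and a Spearman rho of 0.37, against 0.26 and 0.30 over the 14721 genes. This is a description across genes, which share their libraries and are not independent.

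**Figure D4:**
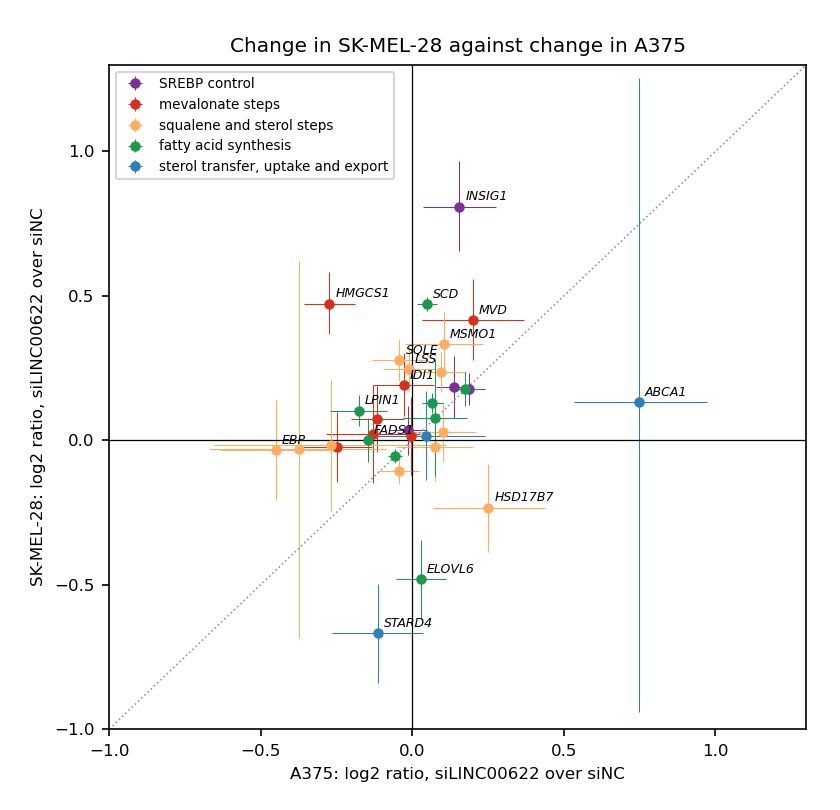
Log2 ratio of siLINC00622 over siNC in SK-MEL-28 (vertical axis) against A375 (horizontal axis) for the 33 genes, coloured by role, with 95% counting intervals; the dotted line marks equal ratios, and genes with intervals apart and 3 others are named. HMGCS1 is at 0.47 and -0.27, and most points lie above the dotted line.

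A fit over all 4 libraries, paired by cell line, gave the test of siLINC00622 that the design allows. In edgeR's quasi-likelihood test with Benjamini-Hochberg adjustment, 0 of the 33 genes were called, against 37 of 16258 genes (0.228%). Adjusted p-values of the 33 were between 0.252 and 0.981, and 4 genes had an unadjusted p below 0.05 (2374 of all genes, 14.6%). These were INSIG1, with a log2 change of 0.48 (adjusted p = 0.252), ABCA1 with 0.64 (adjusted p = 0.276), MVD with 0.32 (adjusted p = 0.279) and SCD with 0.27 (adjusted p = 0.325). LINC00622 itself had a log2 change of -1.05 (adjusted p = 0.113), so this fit with 1 residual degree of freedom also did not call the targeted gene. The error of this fit, too, is what line and treatment leave over. A gene whose change differed between the lines therefore has a larger error. None of the 33 was called with DESeq2, with DESeq2 size factors, without a filter on low counts, with limma on FPKM or without the pairing. Over these alternatives the lowest adjusted p among the 33 was 0.212, for INSIG1 without a filter on low counts. With DESeq2, 3 of the 33 had no adjusted p.

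Of 62 further genes of these pathways that were listed by name, 60 were in the table. In SK-MEL-28 the counting interval lay above 0 for 24 of the 58 with enough counts (41.4%, against 22.9% of all genes) and below 0 for 12 (20.7%, against 24.0%). In A375 it lay above 0 for 25 of 60 (41.7%, against 23.8%) and below 0 for 8 (13.3%, against 22.0%). The shares of all genes were not matched for counts here either. The median log2 ratios of the further genes were 0.07 and 0.11. The paired fit called 0 of them (13 with an unadjusted p below 0.05, which is 21.7% against 14.6% of all genes). ME1, the malic enzyme that supplies NADPH for fatty acid synthesis, was the gene past 1.5-fold in the same direction in both lines, with 1216 and 2179 counts in SK-MEL-28 and 1912 and 3535 counts in A375 in the siNC and siLINC00622 libraries. Its log2 ratios were 0.81 (0.71 to 0.91) and 0.68 (0.60 to 0.76), and its change in edgeR's paired fit was 0.75 (adjusted p = 0.0559), the lowest adjusted p of these genes. Between the lines 29 were higher in SK-MEL-28 (48.3%, against 33.8% of all genes) and 13 lower (21.7%, against 35.1%) at an adjusted p below 0.05. The 4 largest differences were those of ELOVL4, an elongase of very long chain fatty acids (-7.45, 2 and 5 counts in SK-MEL-28 and 603 and 822 counts in A375), of ACSL5, an acyl-CoA synthetase (-4.73), of ELOVL2, an elongase of polyunsaturated fatty acids (3.85), and of CYP27A1, the sterol hydroxylase (3.80).

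In the GENCODE 29 annotation of GRCh38, 10 of the 33 genes have an exon that overlaps another gene of the table, and the library kit that the study's methods name was taken as one that does not mark strand, so that reads of antisense partners cannot be told apart. STARD4 overlaps STARD4-AS1, which had 96 and 92 counts in SK-MEL-28, and 177 and 272 among those of A375. INSIG1 (ENSG00000186480, chr7:155297776-155310235), HMGCS1 (ENSG00000112972, chr5:43289395-43313512), SCD (ENSG00000099194, chr10:100347124-100364834), MVD (ENSG00000167508, chr16:88651935-88663161) and ABCA1 (ENSG00000165029, chr9:104781002-104928237) overlap no other gene of the table. Partners with more counts than the gene itself included TCP1 for ACAT2 (12311 and 12998 counts in SK-MEL-28, 15730 and 16449 for A375), and FEN1 for FADS2 (5609 and 4968 counts in SK-MEL-28, 7386 and 6896 for A375). TM7SF2 overlaps VPS51 on the same strand, FADS1 and FADS2 overlap each other, and SREBF1 overlaps RAI1, which had 7542 and 8493 counts in SK-MEL-28, and 5124 and 5782 among those of A375. Copies listed in the table had few counts, between 20 and 35 for HSD17B7P2, between 16 and 26 for SCDP1 and between 5 and 24 for CYP51A1P2. The part of these overlaps in the results was not tested.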

How the data were processed

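SK-MEL-28 and A375 cells treated with siNC or siLINC00622 were profiled by RNA-Seq and grouped by the labels, with 1 library per condition. The study's methods describe poly(A) selection, an NEBNext Ultra RNA kit and paired-end sequencing. They do not say whether the libraries keep strand, and the kit was taken as one that does not mark it. The submitters' processing notes name hg19, HISAT2, TopHat2, Bowtie2 and HISAT, without their roles. The counting and annotation are not given in the sources used here. The authors deposited whole-number counts per gene without normalization. Deposited FPKM and TPM values correct these for gene length and library size. The CPM values that the authors deposited were used for the library totals, which are count divided by CPM.

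Within a line, counts were scaled by TMM (edgeR 4.0.16, R 4.3.3) on library totals, and log2 ratios used a prior count of 2. Genes reaching 10 counts in either library were tested against 1.5-fold. Library totals between 31269923 and 36384819 counts give intervals that are narrow for abundant genes and wide at 10. Without molecular identifiers, intervals cover counting error only. Over 4 libraries, edgeR's quasi-likelihood test (glmQLFit, filterByExpr, Benjamini-Hochberg, threshold 0.05) modelled cell line and treatment, with the pairing given by the line. The median biological coefficient of variation was 0.098. DESeq2 1.42.0 and limma 3.58.1 on log2(FPKM + 1) were alternatives, beside other scalings, filters and prior counts. The fits were tested on simulated data with planted changes. Calculations other than these used Python 3.11.15.

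The genes and lists were chosen with earlier results of these data known. All 33 genes are named, with further pathway genes named if past 1.5-fold in both lines, called in the paired fit, or among the 4 largest differences between the lines. Coordinates are those of GENCODE 29 and promoters those of RefSeq (GRCh38.p14), which is another build than hg19.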

Additional observations from a re-analysis of the deposited data

Results flagged for a closer look

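For 3 of the 33 genes (9.09%, against 6.40% of all genes, so near the background) the library of siLINC00622 was higher than that of siNC in one line and lower in the other with counting intervals on both sides of 0. HMGCS1, which makes HMG-CoA, came to 0.47 on the log2 scale for SK-MEL-28, against -0.27 for A375. HSD17B7, a sterol ketone reductase, came to -0.23 for SK-MEL-28, against 0.25 for A375. LPIN1, a phosphatidate phosphatase, came to 0.10 for SK-MEL-28, against -0.18 for A375. Each ratio rests on 1 library per condition, and the difference between the lines was not tested.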

How the results depend on the processing

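Scaling by library totals, DESeq2 size factors, TMM over all 4 libraries or the median of all genes, a prior count of 0.5 and the filters on low counts left the genes past 1.5-fold at 2 in SK-MEL-28 and 1 in A375. With deposited FPKM and a pseudocount of 1, which understates changes of low genes, they were 1 and 0, since STARD4 came to -0.51 in SK-MEL-28 and ABCA1 to 0.36 in A375. SCD in SK-MEL-28 came to 0.45 with deposited TPM. The median ratio of the 33 genes in SK-MEL-28, 0.07, was 0.019 with FPKM and 0.017 with TPM. Over all settings the number of genes with a ratio above 0 was between 19 and 23 in SK-MEL-28 and between 16 and 19 in A375. The ratios that changed sign were those of FADS1, MVK, MYLIP and PMVK in SK-MEL-28 and of LSS, PMVK and SCAP in A375, and the counting interval of each included 0.

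Of the 33 genes, those called between the lines were 23 in the edgeR fit (11193 of all 16258 genes), 19 with DESeq2 (8707), 22 with limma (11507) and 20 without the replicate block (10137), and 17 (8711) differed by more than 1.5-fold as well, a threshold added after seeing the data. In the fit paired by line, all genes called were 37 with edgeR, 313 with DESeq2, 121 without a filter, 1 with DESeq2 size factors, 1 with limma and 0 without the replicate block, while 0 of the 33 genes were called in each. Within a line no replicate could be left out. With 1 treatment left out, the line difference of 3 of the 23 genes called moved by over 1.5 times (HMGCS1, HSD17B7 and INSIG1), and that of the other 20 by less, with no change of sign. The cause of these differences was not tested. Depth limits ABCA1 and TM7SF2 in SK-MEL-28, with 15 to 42 counts.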
